A study of Mus musculus with 37 samples.

Results

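The 10 genes described here are Tsc22d3, Fkbp5, Zbtb16, Per1, Klf9, Sgk1, Errfi1, Mt1 and Mt2, which glucocorticoids induce in many cell types, and Nr3c1, the gene of the glucocorticoid receptor. They were taken by name from every expression table of the series. All 10 were found among the 31053 genes of the single-cell tables and the 30892 genes of the cardiac fibroblast (CF) table, and 9 were found among the 20158 genes of the neonatal rat ventricular myocyte (NRVM) table, where Mt2 was read from the row named Mt2A and Nr3c1 was not analysed. The members were chosen by their ratio of CPM between the 2 single-cell libraries, beside their known role, so those ratios are given as a description without a test.

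The series compared hearts with and without ENPP1 in fibroblasts, and cells given media from myocytes exposed to ENPP1, the ectonucleotidase that cleaves extracellular ATP to AMP. For single-cell sequencing, the nonmyocytes of hearts were collected 7 days after myocardial infarction, as 1 library from ENPP1CKO mice, in which tamoxifen-induced Col1a2CreERT deletes the ENPP1 fl/fl allele in cells that express Col1a2, and 1 library from control mice labelled wild type, all on C57BL/6. Whether the control mice received tamoxifen and how many hearts went into each library is not given in the sources used here. For bulk sequencing, mouse CFs immortalized with SV40 antigen, kept in serum-free medium with insulin, transferrin and selenium, received medium from NRVMs that had been treated with vehicle, ENPP1, ATP, ENPP1+ATP or AMP, for 24 or 48 h, with 2 libraries per group and 20 in all. NRVMs from Sprague-Dawley rats were given media with the same 5 names for 24 h, with 3 libraries per group and 15 in all. The paper states that its n values are biological replicates and gives n = 2 for the CF sequencing. Nothing in the labels says that the libraries of a group came from separate cultures. The p-values therefore measure the spread between these libraries, which may be technical.

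Glucocorticoids enter the cell and bind the receptor encoded by Nr3c1, which is held ready for hormone by Hsp90 and its co-chaperones, moves to the nucleus and binds DNA at palindromic glucocorticoid response elements (GREs) or through other transcription factors. Fkbp5 encodes an Hsp90 co-chaperone that lowers the receptor's affinity for hormone and is itself induced, which closes a feedback loop. Tsc22d3 (also called GILZ) encodes a leucine zipper protein that carries part of the hormone's anti-inflammatory action, Zbtb16 and Klf9 encode zinc finger transcription factors, and Per1 encodes a repressor of the circadian clock. Sgk1 is a kinase that controls ion channels and transporters, Errfi1 is an inhibitor of the EGF receptor family, and Mt1 and Mt2 are metallothioneins that bind zinc and copper and also respond to metal. In the heart, glucocorticoid signalling acts on inflammation, fibroblasts and myocytes after injury.

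The promoter windows of 8 of the 10 genes, 17 windows in all, were available from RefSeq on GRCm38.p6, and the 250 bases before each annotated start were searched on both strands. A window of Sgk1 and those of Mt1 and Mt2 are shown because Sgk1 held the one full GRE of these windows and had the largest rise of the 10 genes in CFs, and because Mt1 and Mt2 are neighbours whose reads moved in opposite directions there. Capitals mark the full GRE in Sgk1, which was searched as AGAACA and TGTTCT with any 3 bases between, the shorter GRE core in Mt1, searched as GNACA and TGTNC with any 3 bases between, and metal response elements (MREs), TGCACNC or TGCGCNC, on either strand in Mt1 and Mt2. A match is a description of the letters and not a site of binding.

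Sgk1 promoter, chr10:21993640-21993889, plus strand: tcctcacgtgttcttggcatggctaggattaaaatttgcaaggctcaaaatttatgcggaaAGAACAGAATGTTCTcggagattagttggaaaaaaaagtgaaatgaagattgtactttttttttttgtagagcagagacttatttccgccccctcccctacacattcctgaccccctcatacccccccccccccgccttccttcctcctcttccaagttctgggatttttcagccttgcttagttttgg

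Mt1 promoter, chr8:94178839-94179088, plus strand: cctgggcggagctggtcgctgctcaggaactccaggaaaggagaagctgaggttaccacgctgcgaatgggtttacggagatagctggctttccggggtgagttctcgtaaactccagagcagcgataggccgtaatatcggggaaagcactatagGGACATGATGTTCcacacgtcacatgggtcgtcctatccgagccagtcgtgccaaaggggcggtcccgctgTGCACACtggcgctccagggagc

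Mt2 promoter, chr8:94172368-94172617, plus strand: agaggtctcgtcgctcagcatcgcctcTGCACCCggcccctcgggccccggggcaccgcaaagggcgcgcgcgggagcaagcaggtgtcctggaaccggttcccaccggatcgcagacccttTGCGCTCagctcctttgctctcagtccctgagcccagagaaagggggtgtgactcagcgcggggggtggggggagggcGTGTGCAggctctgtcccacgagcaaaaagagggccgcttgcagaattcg

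The full GRE lay from 189 to 175 bases before the start of Sgk1 and was found in 3 of 32851 windows of the same length (0.00913%). The GRE core, which the full GRE of Sgk1 also contains, was found in 127 windows (0.387%), among them that of Mt1, where it began 94 bases before the start. MREs were found in 21.4% of windows, 1 in Mt1, 3 in Mt2 and 1 in a window of Per1. E-boxes (CACGTG, the site of clock factors) were found in 6.02% of windows and occurred in 1 window each of Fkbp5, Per1 and Sgk1. The cyclic AMP response element (TGACGTCA) was found in 1.55% of windows and occurred in 1 window of Errfi1. The windows of Tsc22d3 and Klf9 held none of these letters, which says nothing of sites outside them. Mt2 lies at chr8:94172664-94173568 and Mt1 at chr8:94179082-94180327 on the plus strand of mm10 (GENCODE vM21), with 5513 bases between them. Their transcripts shared no stretch of 31 bases, the longest being 20 bases. Mt2 and Errfi1 each overlap an antisense gene and Fkbp5 overlaps 2 genes on each strand. Whether the counting used strand is not given in the sources used here.

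The ENPP1CKO library held 7255 cells after filtering, with 3367 counts in the median cell, and the control library held 5240 cells with 3701 counts. The 2 libraries shared 68 barcodes. Enpp1, the targeted gene, had 28.4 CPM (its counts as a share of all counts of the class in that library, times 1000000) in the fibroblast-like cells of ENPP1CKO and 127 CPM in those of the control, a log2 ratio of -2.16 with a 95% interval of -2.32 to -2.01. Intervals of single-cell values cover counting error only. Cells were grouped into 19 clusters, which were named from marker genes, and 6 classes held at least 50 cells in each library. The bulk libraries held 32184799 to 115824659 counts in CFs and 13481389 to 16977980 in NRVMs.

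In the single-cell libraries, 3 of the genes stood higher in ENPP1CKO than in control in several cell types: Tsc22d3, Fkbp5 and Zbtb16. The other 7 differed by less than 2-fold in either direction in fibroblast-like, macrophage-like and endothelial-like cells. In the fibroblast-like class (3674 and 1799 cells), 2 genes were at least 2-fold higher and 0 as much lower, where 2.48% and 2.66% of 12637 genes were. In macrophage-like cells (2032 and 2522) the counts were 3 and 0, where 1.29% and 4.89% of 10839 genes were. In endothelial-like cells (932 and 194) they were 3 and 0, where 5.81% and 4.21% of 8050 genes were. The 3 include Zbtb16, with 20 counts in ENPP1CKO and 0 in control, which passed the filter of 20 counts through the ENPP1CKO library. The 10 genes were chosen for such ratios, so nothing is read from the counts. The median log2 ratio of the 10 genes was 0.45, 0.09 and 0.45 in the 3 classes, beside 0.01, -0.13 and -0.03 for all genes tested.

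**Figure D1:**
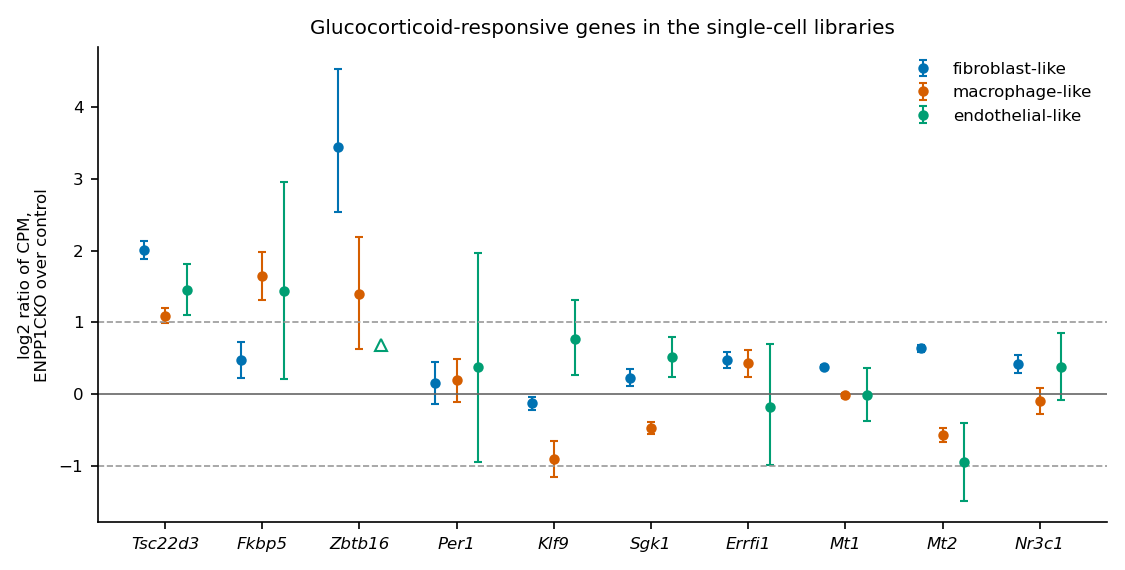
Log2 ratio of CPM, ENPP1CKO over control, for the 10 genes in 3 cell classes. Points are ratios of summed counts of 1 library per genotype, bars are 95% exact intervals for counting error, dashed lines mark 2-fold, and the open triangle is the lower interval bound for Zbtb16 in endothelial-like cells, which had 20 counts in ENPP1CKO and 0 in control. Tsc22d3 lies above 1 in each of the 3 classes.

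Tsc22d3 had 245 CPM in the fibroblast-like cells of ENPP1CKO and 61.0 CPM in control, a 4.02-fold ratio (log2 ratio 2.01, 95% interval 1.88 to 2.13). It had 274 and 128 CPM in macrophage-like cells (log2 ratio 1.10, 0.99 to 1.21) and 369 and 135 CPM in endothelial-like cells (log2 ratio 1.45, 1.10 to 1.81). The ENPP1CKO library had the higher value in each of the 3 classes. The same direction was seen in smooth muscle or pericyte-like cells (174 and 48.0 CPM) and in T or NK cell-like cells (388 and 283 CPM). Markers of other cells also differed in these classes. In smooth muscle or pericyte-like cells, Col1a1, Col1a2 and Col3a1 summed to 3449 and 8093 CPM, and endothelial markers to 2849 and 1341 CPM. In T or NK cell-like cells, C1qa, C1qb and C1qc summed to 2073 and 260.0 CPM. Dendritic-like cells had 79.3 and 119 CPM of Tsc22d3 (log2 ratio -0.59, -1.30 to 0.11). Ordered by level, control cells ran from smooth muscle or pericyte-like to T or NK cell-like. The intervals of smooth muscle or pericyte-like and fibroblast-like cells overlapped there, as did those of dendritic-like, macrophage-like and endothelial-like cells. In ENPP1CKO the dendritic-like cells stood lowest, and of neighbouring classes only endothelial-like and T or NK cell-like cells overlapped.

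The fibroblast-like cells were spread over the same 4 clusters in different shares. The largest in ENPP1CKO was that led by Aspn and Cilp (1616 cells, 227 in control) and the largest in control that led by Cthrc1 and Sfrp2 (997 cells, 793 in ENPP1CKO). Within the Aspn cluster Tsc22d3 had 326 and 100.2 CPM (log2 ratio 1.70, 1.42 to 1.99), and within the Cthrc1 cluster 156 and 50.7 CPM (1.62, 1.42 to 1.82). The ratio was 1.36 in the Clec3b and Pi16 cluster and 2.52 in the one led by Ifit3. Across 12 clusters with at least 50 cells in each library, Tsc22d3 was higher in ENPP1CKO in 11, each with an interval above 0.

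**Figure D2:**
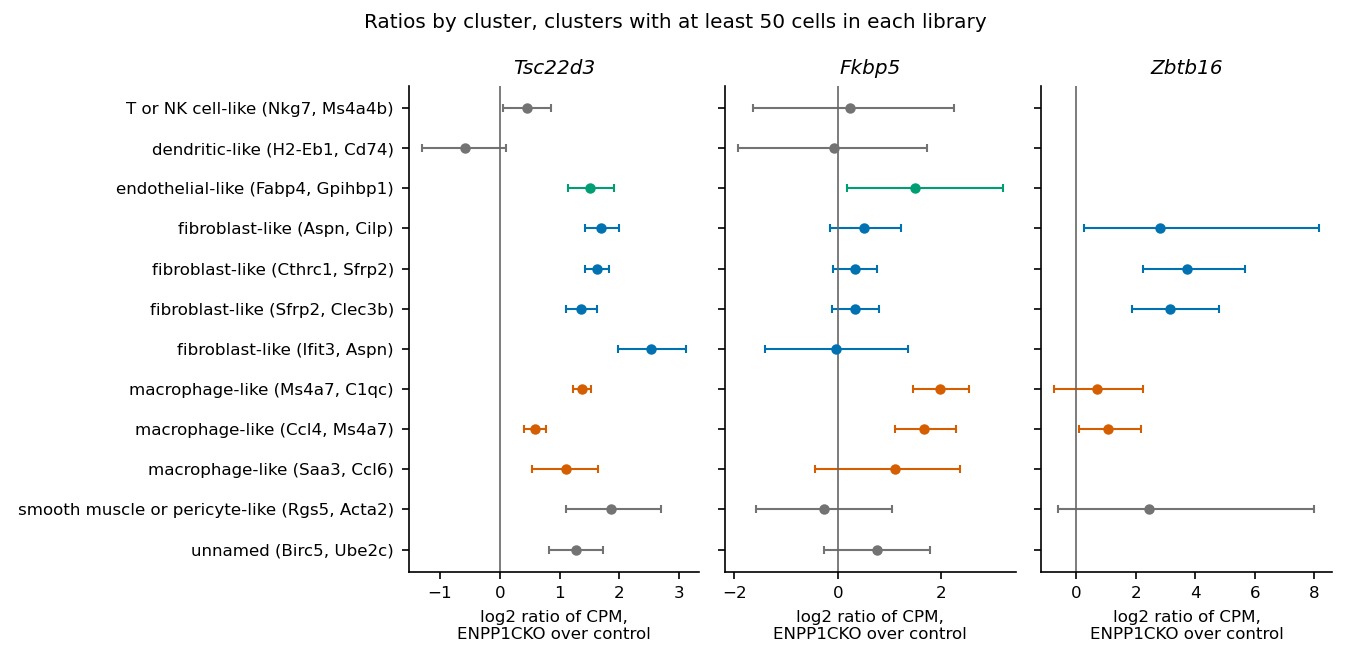
Log2 ratio of CPM, ENPP1CKO over control, of Tsc22d3, Fkbp5 and Zbtb16 in the 12 clusters with at least 50 cells in each library, which are named by class and 2 of their leading genes. Points are ratios of summed counts, bars are 95% exact intervals for counting error, and clusters with a count of 0 in a library have no point. Tsc22d3 lies above 0 in 11 of 12 clusters, and Fkbp5 has its highest ratio, 1.98, in the macrophage-like cluster led by Ms4a7 and C1qc.

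Zbtb16 was sparse, with 179 counts in the fibroblast-like cells of ENPP1CKO and 10 in those of the control, that is 11.1 and 1.02 CPM (log2 ratio 3.45, 2.53 to 4.53, and 2.44 with cells thinned to 2000 counts). Macrophage-like cells held 47 and 22 counts (log2 ratio 1.39, 0.63 to 2.19). In endothelial-like cells there were 20 counts against 0, which allows up to 5.34 CPM in control. The T or NK cell-like cells held 0 counts in both libraries. All 6 clusters with counts in both libraries had the higher value in ENPP1CKO, and the interval was above 0 in 4. Clusters without counts in both include the endothelial-like cluster led by Fabp4, with 20 counts in ENPP1CKO and 0 in control. They also include the macrophage-like cluster with Saa3 and Ccl6 among its leading genes, with 0 and 2.

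Fkbp5 had its larger ratios in macrophage-like and endothelial-like cells. Macrophage-like cells had 39.3 and 12.6 CPM (log2 ratio 1.64, 1.31 to 1.98) and endothelial-like cells 29.0 and 10.7 CPM from 50 and 6 counts (1.44, 0.22 to 2.95, and 3.02 with cells thinned to 2000 counts). The fibroblast-like cells had 27.6 and 19.8 CPM (0.48, 0.23 to 0.73). The T or NK cell-like, dendritic-like and smooth muscle or pericyte-like classes, with 5 to 12 counts per library, gave 0.24, -0.08 and -0.27, with intervals that include 0. Within the 4 fibroblast-like clusters each interval included 0, whereas the macrophage-like clusters led by Ms4a7 and C1qc (1.98, 1.45 to 2.54) and by Ccl4 (1.67, 1.10 to 2.28) stood above it.

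Nr3c1 had 105 and 78.3 CPM in fibroblast-like cells (log2 ratio 0.42, 0.30 to 0.55), 64.2 and 68.8 CPM in macrophage-like cells (-0.10, -0.28 to 0.08) and 113 and 87.3 CPM in endothelial-like cells (0.37, -0.08 to 0.86). These intervals hold no spread between animals or libraries, as for every single-cell ratio given here. The highest level of Nr3c1 in both libraries was in T or NK cell-like cells and its lowest in dendritic-like cells. In ENPP1CKO the intervals of T or NK cell-like and endothelial-like cells overlapped. Those of dendritic-like and macrophage-like cells overlapped in both libraries.

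Per1 gave ratios whose intervals included 0 in each of the 3 classes (0.16, 0.20 and 0.38). Errfi1 had 129 and 92.6 CPM in fibroblast-like cells (0.48, 0.36 to 0.59) and 70.7 and 52.4 CPM in macrophage-like cells (0.43, 0.24 to 0.62), and in both libraries its level was highest in smooth muscle or pericyte-like cells (542 and 299 CPM). Sgk1 had 341 and 239 CPM in endothelial-like cells (0.51, 0.24 to 0.80, and 1.03 with cells thinned to 1000 counts) and 238 and 329 CPM in macrophage-like cells (-0.47, -0.56 to -0.38). In fibroblast-like cells it had 111 and 94.3 CPM (0.23, 0.12 to 0.35), but 0.05 with cells thinned to 1000 counts, and the 4 clusters gave 0.32, 0.11, -0.23 and 0.81. Klf9 had 155 and 169 CPM in fibroblast-like cells (-0.12, -0.21 to -0.03), 116 and 67.7 CPM in endothelial-like cells (0.77, 0.26 to 1.31, with 1.12 in the Fabp4 cluster and -0.95 in the Ccl21a cluster) and 27.1 and 50.6 CPM in macrophage-like cells (-0.90, -1.15 to -0.65).

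By class, the metallothionein ratios differed between cell types, but those of macrophage-like and endothelial-like cells moved with single clusters or settings. Mt1 had 1629 and 1248 CPM in fibroblast-like cells (0.38, 0.35 to 0.41) and Mt2 had 676 and 434 CPM (0.64, 0.59 to 0.69). Within the 4 fibroblast-like clusters the ratios were lower, from 0.10 to 0.27 for Mt1 and from 0.22 to 0.58 for Mt2, and with the unnamed cluster led by Saa3 and Clu added to the class they were 0.26 and 0.39. In macrophage-like cells Mt1 had 1526 and 1539 CPM (-0.01, -0.05 to 0.02) and Mt2 had 181 and 267 CPM (-0.56, -0.66 to -0.46). Several macrophage values moved with one cluster, with Saa3 and Ccl6 among its leading genes, which held 52 cells of ENPP1CKO and 803 of the control. Without it the macrophage-like log2 ratio went from -0.90 to -0.13 for Klf9, from -0.56 to 0.17 for Mt2, from -0.01 to 0.28 for Mt1 and from -0.47 to -0.24 for Sgk1. Without it Tsc22d3 was at 1.07 and Fkbp5 at 1.89, beside 1.10 and 1.64 with it. In endothelial-like cells Mt2 had 45.3 and 87.3 CPM (-0.95, -1.48 to -0.40), but the cluster led by Fabp4 gave 0.38 (-0.47 to 1.34) and that led by Ccl21a, with 65 and 30 cells, gave -1.86 (-2.79 to -0.99). Mt1, at 0.00 (-0.37 to 0.37) in the class, gave 0.56 (0.09 to 1.07) and -0.82 (-1.49 to -0.15) in these clusters. With predicted doublets kept, the class ratio was 0.50 for Mt2 and 0.81 for Mt1.

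Markers of other cells differed between the libraries beside these ratios. In fibroblast-like cells the summed cardiomyocyte markers had 38.3 CPM in ENPP1CKO and 16.9 CPM in control, with 7 of 8 tested intervals above 0. The summed endothelial markers there had 179 and 117 CPM, and the summed macrophage markers 3344 and 2841 CPM, although of 14 tested 1 interval was above 0 and 11 below. C1qa, C1qb and C1qc, which belong to that list, had 160 and 217 CPM, or 0.883% and 1.62% of their level in macrophage-like cells. In macrophage-like cells the cardiomyocyte markers had 45.9 and 17.1 CPM. In endothelial-like cells they had 71.4 and 42.8 CPM, with Myh6, Ryr2 and Actn2 at 0 in both libraries. The part of these markers in the ratios of the 10 genes was not tested.

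Other genes around the pathway were read from lists. Of 31 other glucocorticoid targets, 25 were tested in fibroblast-like cells, and the interval was above 0 for 12 and below 0 for 5 (median log2 ratio 0.16). Of all genes tested, 16.9% were above and 16.0% below in fibroblast-like cells, 8.24% and 24.3% in macrophage-like cells and 7.25% and 9.47% in endothelial-like cells. The highest were Sult1a1, a sulfotransferase (2.13, 0.89 to 3.65), Pdk4, a kinase that inhibits pyruvate dehydrogenase (2.06, 0.81 to 3.58), and Rgcc (1.15, 0.80 to 1.51). Lowest stood Nfil3, a transcriptional repressor (-0.58, -0.90 to -0.25), and Angptl4, an inhibitor of lipoprotein lipase (-0.56, -0.68 to -0.43). Of 23 tested in macrophage-like cells, 7 were above and 9 below, led by Sult1a1 (1.82, 1.35 to 2.31) and Ddit4, an inhibitor of mTORC1 signalling (1.02, 0.54 to 1.52), and by Cebpb, a transcription factor of myeloid cells (-1.97, -2.12 to -1.83), which is also among the leading genes of the Saa3 and Ccl6 cluster that lies mostly in control. Of 18 tested in endothelial-like cells, 11 were above and 3 below, with Rgcc at 1.58 (1.36 to 1.79), Cdkn1a, a cell cycle inhibitor, at 1.46 (1.15 to 1.78) and Angptl4 at -1.34 (-1.85 to -0.83).

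Of 24 genes of the receptor machinery, 13 were above and 2 below in fibroblast-like cells (16.9% and 16.0% of all genes). Nr3c2, the mineralocorticoid receptor, which also binds glucocorticoids, had 2.10 and 0.508 CPM (log2 ratio 2.05, 0.69 to 3.76), and Hsd11b1, which regenerates active hormone, had 16.1 and 11.7 CPM (0.46, 0.14 to 0.79). Hsd11b2, which inactivates the hormone, had 19 and 1 counts, and so passed the filter of 20 counts through the ENPP1CKO library, with a ratio of 3.53 (0.88 to 8.91). In macrophage-like cells 3 of 22 machinery genes were above and 4 below (8.24% and 24.3% of all genes). Hsd11b1 had 0.289 and 2.12 CPM in that class (-2.88, -6.03 to -0.81). In endothelial-like cells 1 of 20 was above and 3 were below (7.25% and 9.47% of all genes).

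Of 17 circadian clock genes tested in fibroblast-like cells, 11 were above and 2 below (16.9% and 16.0% of all genes), and their median log2 ratio was 0.53, beside 0.01 for all genes. Hlf had 7.86 and 0.61 CPM (3.69, 2.53 to 5.16), Per2 had 3.03 and 1.12 CPM (1.44, 0.48 to 2.53) and Per3 had 45.7 and 19.5 CPM (1.23, 1.00 to 1.47), while Bhlhe40 (-0.31, -0.41 to -0.20) and Nr1d1 (-0.30, -0.52 to -0.07) were lower. In endothelial-like cells Dbp (3.36, 1.45 to 6.44), Nr1d1 (2.03, 0.58 to 3.96) and Per3 (1.53, 0.48 to 2.80) were higher and no clock gene was below, of 12 tested (7.25% and 9.47% of all genes). In macrophage-like cells 3 of 15 were above (Tef, Cry2 and Dbp) and 5 below (8.24% and 24.3% of all genes), with Per2 at -1.61 (-2.95 to -0.45) and Bhlhe40 at -1.25 (-1.43 to -1.07). The time of day of collection is not given in the sources used here, and the part of the clock genes in the ratios of the 10 genes was not tested.

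Among 14 tested genes of the metal and oxidant response, 2 were above and 2 below in fibroblast-like cells (16.9% and 16.0% of all genes), with Slc39a10, a zinc importer, higher (0.75, 0.44 to 1.08) and Slc7a11, a cystine importer, lower (-1.45, -2.38 to -0.56). In macrophage-like cells 1 of 13 was above and 7 were below (8.24% and 24.3% of all genes), among them Gclm (-1.08, -1.31 to -0.85) and Hmox1, heme oxygenase (-0.85, -0.94 to -0.76). Of the 23 genes that rise on tissue dissociation, 8 were above and 12 below in fibroblast-like cells (16.9% and 16.0% of all genes), where Jund had 266 and 915 CPM (-1.78, -1.83 to -1.73). In macrophage-like cells 14 were above and 5 below (8.24% and 24.3% of all genes), with Fos at 0.76 (0.73 to 0.79) and Jund at -1.49 (-1.57 to -1.40).

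In CFs, medium from NRVMs treated with ENPP1+ATP lowered Tsc22d3 and raised Sgk1 and Errfi1 at 24 h, and AMP medium did the same. At 24 h, 5 of the 10 genes rose and 3 fell with ENPP1+ATP against vehicle, where 49.1% of 17879 genes changed (23.9% rose and 25.3% fell). With AMP, 4 rose and 3 fell, where 52.8% of genes changed (25.3% rose and 27.5% fell). At 48 h, 4 rose and 2 fell with ENPP1+ATP (45.2% of genes changed, 20.8% up and 24.4% down) and 6 rose and 2 fell with AMP (44.0%, 21.1% up and 22.9% down). The counts are of edgeR's quasi-likelihood test at an adjusted p of 0.05, over all genes, and all 10 genes passed its filter on low counts. The comparisons of a time share the vehicle libraries. In bulk values, fewer cells of a type and less RNA per cell cannot be told apart.

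**Figure D3:**
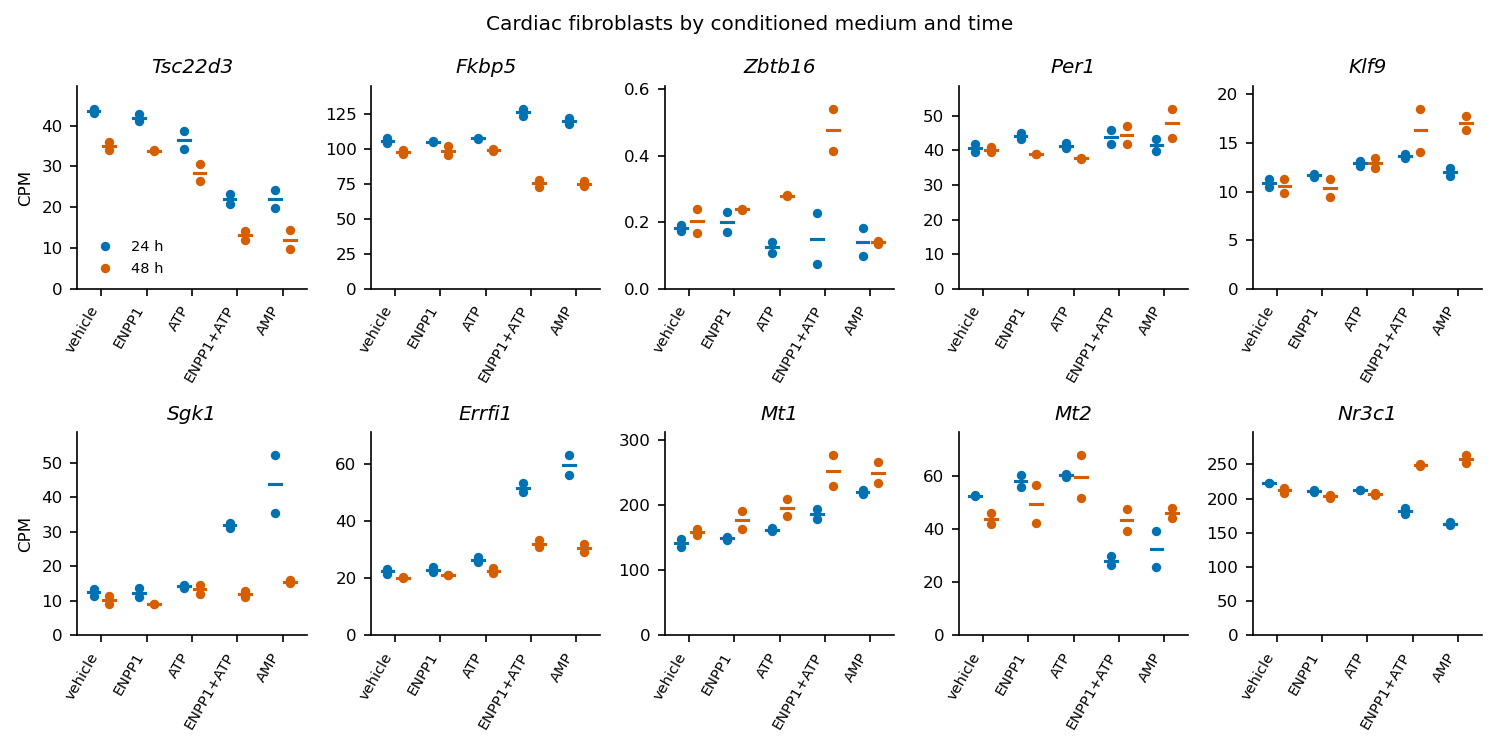
CPM of the 10 genes in each of the 20 CF libraries, by conditioned medium, at 24 h (blue) and 48 h (orange). Points are libraries, short lines are means of 2 libraries, and the vertical axes start at 0. Tsc22d3 is lowest, and Errfi1 highest at 24 h, in ENPP1+ATP and AMP media, and Sgk1 is farther above vehicle in these media at 24 h than at 48 h.

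Tsc22d3 had 43.2 and 44.2 CPM in the vehicle libraries at 24 h, 20.7 and 23.3 CPM with ENPP1+ATP, 19.9 and 24.3 CPM with AMP, 38.6 and 34.3 CPM with ATP and 42.7 and 41.1 CPM with ENPP1. The ENPP1+ATP and AMP libraries lay below those of the other media without overlap. The log2 fold change was -0.99 ± 0.13 (SE, n = 2 libraries a group, edgeR adjusted p = 2.3e-06) with ENPP1+ATP and -0.98 ± 0.12 (edgeR adjusted p = 2.0e-06) with AMP. At 48 h the vehicle libraries had 36.1 and 34.0 CPM, ENPP1+ATP 12.0 and 14.2 CPM, and AMP 14.3 and 9.69 CPM. The log2 fold changes there were -1.42 ± 0.13 (edgeR adjusted p = 5.4e-08) and -1.55 ± 0.14 (1.8e-08). Against ATP medium, ENPP1+ATP lowered Tsc22d3 by 0.73 on the log2 scale at 24 h (edgeR adjusted p = 0.00012) and by 1.12 at 48 h (2.0e-06). These libraries and the single-cell libraries come from different cells and were not compared by a test.

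Sgk1 had 13.4 and 11.5 CPM in vehicle at 24 h, 32.6 and 31.2 CPM with ENPP1+ATP and 52.2 and 35.4 CPM with AMP. The libraries of both media lay above vehicle, and the AMP libraries differed from each other more than those of other media. The log2 fold change was 1.35 ± 0.15 with ENPP1+ATP (edgeR adjusted p = 6.6e-07) and 1.79 ± 0.15 with AMP (1.1e-08). At 48 h Sgk1 had 11.3 and 9.22 CPM in vehicle, 12.7 and 10.99 CPM with ENPP1+ATP, a difference that did not pass (0.21 ± 0.17, edgeR adjusted p = 0.34), and 16.0 and 15.2 CPM with AMP (0.60 ± 0.16, edgeR adjusted p = 0.0057). The AMP call at 48 h was lost without vehicle replicate 2 (0.46, edgeR adjusted p = 0.078). The promoter with the full GRE shown above belongs to 1 of 6 RefSeq windows of Sgk1, and which start was used is not measured in these counts.

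Errfi1 had 23.3 and 21.6 CPM in vehicle at 24 h, 50.1 and 53.4 CPM with ENPP1+ATP and 63.1 and 56.1 CPM with AMP. Both media stood above vehicle by 1.20 ± 0.08 (edgeR adjusted p = 2.5e-12) and 1.40 ± 0.08 (9.5e-14) on the log2 scale. At 48 h the vehicle libraries had 20.0 and 20.4 CPM, ENPP1+ATP 33.4 and 30.8 CPM (0.67 ± 0.08, edgeR adjusted p = 1.3e-07) and AMP 29.1 and 32.0 CPM (0.59 ± 0.08, 8.7e-07). Errfi1 thus remained raised at 48 h by a smaller amount than at 24 h, and the difference between the times passed the test (ENPP1+ATP -0.53 ± 0.11, edgeR adjusted p = 0.00054).

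Mt1 and Mt2 moved apart at 24 h. Mt1 had 148 and 135 CPM in vehicle, 194 and 178 CPM with ENPP1+ATP and 217 and 223 CPM with AMP. Mt2 had 52.4 and 53.1 CPM in vehicle, 26.4 and 30.0 CPM with ENPP1+ATP and 25.9 and 39.6 CPM with AMP. No library of these media overlapped vehicle for either gene. Mt1 rose by 0.39 ± 0.09 with ENPP1+ATP (edgeR adjusted p = 0.0025) and by 0.63 ± 0.09 with AMP (2.9e-05), and Mt2 changed by -0.90 ± 0.20 (edgeR adjusted p = 0.0028) and -0.67 ± 0.19 (0.013) on the log2 scale. The AMP call of Mt2 was lost without AMP replicate 1 (-0.41, edgeR adjusted p = 0.084), without vehicle replicate 1 (0.055) and without vehicle replicate 2 (0.052). At 48 h Mt1 had 153 and 163 CPM in vehicle, 228 and 276 CPM with ENPP1+ATP (0.67 ± 0.09, edgeR adjusted p = 2.1e-05) and 233 and 265 CPM with AMP (0.66 ± 0.09, 2.8e-05). Mt2 had 42.0 and 46.2 CPM in vehicle, 39.4 and 47.6 CPM with ENPP1+ATP and 44.4 and 48.1 CPM with AMP at that time, and neither passed the test (-0.02 ± 0.20 and 0.07 ± 0.20). In the single-cell fibroblast-like cells both metallothioneins had ratios of ENPP1CKO over control above 0. Those ratios set loss of ENPP1 against control, whereas the CF changes set medium made with ENPP1 and ATP against vehicle. The directions are therefore not alike, and the values were not compared by a test.

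Fkbp5 and Nr3c1, the feedback pair, each changed direction between the times. Fkbp5 had 104 and 108 CPM in vehicle at 24 h, 129 and 124 CPM with ENPP1+ATP (0.25 ± 0.05, edgeR adjusted p = 7.7e-05) and 118 and 122 CPM with AMP (0.18 ± 0.05, 0.0021). At 48 h it had 96.3 and 98.8 CPM in vehicle, 72.7 and 77.8 CPM with ENPP1+ATP (-0.37 ± 0.05, edgeR adjusted p = 6.5e-07) and 76.7 and 73.5 CPM with AMP (-0.38 ± 0.05, 5.9e-07). Both media were thus above vehicle at 24 h and below it at 48 h, without overlap. The AMP call at 24 h was lost without vehicle replicate 1 (0.15, edgeR adjusted p = 0.061) and without a filter on low counts (0.0501).

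Nr3c1 went the other way. The vehicle libraries had 223 and 223 CPM at 24 h, ENPP1+ATP 187 and 177 CPM (-0.29 ± 0.04, edgeR adjusted p = 2.4e-06) and AMP 161 and 166 CPM (-0.45 ± 0.04, 2.4e-09). At 48 h vehicle had 216 and 209 CPM, ENPP1+ATP 251 and 248 CPM (0.23 ± 0.04, edgeR adjusted p = 6.5e-05) and AMP 252 and 264 CPM (0.28 ± 0.04, 5.9e-06). The test of the difference between the times passed for both media in both genes: for ENPP1+ATP it was -0.63 ± 0.07 for Fkbp5 (edgeR adjusted p = 1.4e-07) and 0.53 ± 0.06 for Nr3c1 (2.7e-07), and for AMP -0.56 ± 0.07 (5.5e-07) and 0.73 ± 0.06 (1.4e-09). Over all genes, 30.0% passed this test for ENPP1+ATP (15.1% up and 14.9% down) and 31.7% for AMP (17.3% up and 14.4% down), and 5 of the 10 genes (2 up and 3 down) and 6 (2 up and 4 down) did.

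Klf9 had 10.5 and 11.3 CPM in vehicle at 24 h and 13.8 and 13.5 CPM with ENPP1+ATP (0.33 ± 0.12, edgeR adjusted p = 0.021), a call that was lost without ENPP1+ATP replicate 1, without ENPP1+ATP replicate 2 or without vehicle replicate 1 (edgeR adjusted p = 0.092, 0.054 and 0.18). With AMP it had 11.6 and 12.4 CPM (0.15 ± 0.12, edgeR adjusted p = 0.29). At 48 h vehicle had 9.83 and 11.3 CPM, ENPP1+ATP 18.5 and 14.04 CPM (0.63 ± 0.12, edgeR adjusted p = 9.8e-05) and AMP 17.7 and 16.3 CPM (0.69 ± 0.12, 3.2e-05). The libraries of both media stood above vehicle at 48 h.

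Per1 varied little, from 37.4 to 52.1 CPM over the 20 CF libraries. It passed the test with AMP at 48 h, with 43.7 and 52.1 CPM against 39.7 and 40.9 CPM (0.25 ± 0.07, edgeR adjusted p = 0.0077). That call was lost without AMP replicate 2 (0.12, edgeR adjusted p = 0.27) and without vehicle replicate 1 (0.063). Zbtb16 was near the lower limit of detection, with 3 to 20 counts per CF library, and no comparison of it passed. Its highest values were those of ENPP1+ATP at 48 h, 0.413 and 0.541 CPM, against 0.239 and 0.166 CPM in vehicle (1.21 ± 0.63, edgeR adjusted p = 0.13).

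ATP medium and ENPP1 medium, which hold one component of the pair, gave no call among the 10 genes. With ATP, 11.1% of all genes changed at 24 h (4.77% up and 6.32% down) and 7.83% at 48 h (5.35% up and 2.48% down). At an unadjusted p under 0.05, 3 and 5 of the 10 genes passed, and DESeq2 called 1 at each time, Errfi1 at 24 h (0.25, adjusted p = 0.030) and Mt1 at 48 h (0.31, adjusted p = 0.034). Errfi1 had 27.5 and 25.5 CPM with ATP at 24 h (0.23 ± 0.08, edgeR adjusted p = 0.052). With ENPP1, edgeR called 0 of 17879 genes at either time (0%), DESeq2 also 0, and at an unadjusted p under 0.05 there were 249 genes at 24 h and 743 at 48 h, with none of the 10 among them. The intervals of the 10 genes' ENPP1 fold changes are wide for Zbtb16 (0.15 ± 0.66 at 24 h) and narrow for Fkbp5 (-0.01 ± 0.05) and Nr3c1 (-0.07 ± 0.04). Against ATP medium, which shares its libraries with the ATP comparison, ENPP1+ATP changed 6 genes at 24 h, 3 up and 3 down (43.9% of all genes, 21.8% up and 22.1% down), and 7 at 48 h, 5 up and 2 down (39.5%, 18.2% up and 21.3% down). Of these, the calls of Per1, Klf9 and Mt1 at 48 h were each lost on leaving out one library or another (edgeR adjusted p up to 0.21, 0.52 and 0.097). In vehicle medium no member of the 10 changed between 24 and 48 h (4.88% of all genes did, 1.68% up and 3.20% down, 2 of the 10 passed an unadjusted p under 0.05 and DESeq2 called 0).

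**Figure D4:**
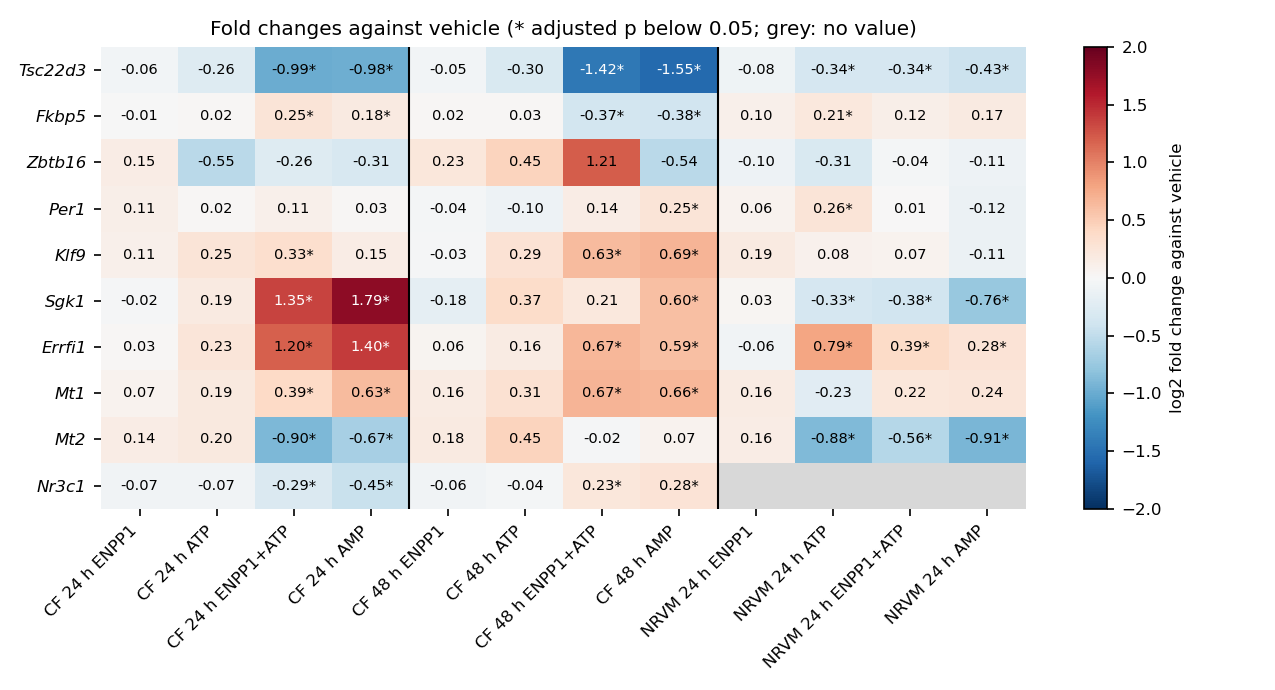
Log2 fold change against vehicle of the 10 genes in CFs at 24 h and 48 h and in NRVMs at 24 h, for 4 media. The colour scale runs from -2 to 2, asterisks mark an edgeR adjusted p below 0.05, and the grey row part has no value. In CFs the changes lie in the ENPP1+ATP and AMP columns, while in NRVMs Tsc22d3, Sgk1 and Mt2 are lower with ATP as well.

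The other glucocorticoid targets moved in CFs in both directions. Of 26 tested, 12 rose and 7 fell with ENPP1+ATP at 24 h (median log2 fold change 0.17, beside 0.00 for all genes, of which 23.9% rose and 25.3% fell). Angptl4 rose by 3.12 ± 0.16 (edgeR adjusted p = 4.4e-14) and Txnip, an inhibitor of thioredoxin, by 2.49 ± 0.09 (8.3e-14), and Adamts1, a protease, changed by -2.13 ± 0.07 (9.7e-17). At 48 h, 13 rose and 9 fell (20.8% and 24.4% of all genes), with Angptl4 at 6.94 ± 0.14 (edgeR adjusted p = 2.6e-21), Cdkn1a at 2.30 ± 0.14 (7.0e-08) and Pdk4 at 1.79 ± 0.08 (4.9e-15). With ATP medium at 24 h, 8 of these rose and 3 fell (4.77% and 6.32% of all genes), among them Angptl4 (2.07 ± 0.17, edgeR adjusted p = 1.4e-08).

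Of 24 genes of the receptor machinery, 9 rose and 8 fell with ENPP1+ATP at 24 h and 12 rose and 3 fell at 48 h. Of all genes, 23.9% rose and 25.3% fell at 24 h and 20.8% rose and 24.4% fell at 48 h, and the list counts in this comparison stand beside those shares. The Hsp90 co-chaperone gene Ptges3 fell at both times (-0.45 ± 0.06 and -0.37 ± 0.06, edgeR adjusted p = 3.3e-07 and 7.9e-06). Of 18 clock genes, 3 rose and 6 fell at 24 h and 4 rose and 6 fell at 48 h. Nr1d1 rose at both times (0.39 ± 0.07 and 1.41 ± 0.07, edgeR adjusted p = 6.6e-05 and 2.6e-14), and Dbp fell by 1.23 at 24 h (3.6e-09). Of 14 genes of the metal and oxidant response, 5 rose and 4 fell at 24 h, with Slc7a11 at -1.23 ± 0.13 (edgeR adjusted p = 8.0e-07), Slc39a10 at -1.12 ± 0.07 (2.3e-12) and Gclc at 0.74 ± 0.06 (3.0e-10). Of 23 immediate early and heat shock genes of the dissociation list, 15 rose and 3 fell at 24 h, with Fos at 3.60 ± 0.15 (edgeR adjusted p = 3.3e-15) and Egr1 at 2.64 ± 0.18 (2.8e-07).

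Over the 20 CF libraries, the genes with the highest Pearson r of log2 CPM included Klf4 and Chmp3 for Klf9 (r = 0.92 and 0.91), Plagl2, Etv5 and Fam53c for Sgk1 (r = 0.96 each), and Plekha7, Pitpnm2 and Eif2d for Mt1 (r = 0.97 each), out of 17879 genes. The libraries share media and depth, so r describes these libraries alone. Over 12 sums of 6 classes by library in the single-cell data, the closest were Igkc, Ubr2 and Arl6ip1 for Tsc22d3 (r = 0.82, 0.80 and 0.78), Igha, Tnnt2 and Jchain for Fkbp5 (r = 0.66, 0.66 and 0.65) and Phyh, Fxyd2 and Zeb2 for Mt1 (r = 0.94, 0.93 and 0.90), out of 10052 genes. Igkc, Igha and Jchain are immunoglobulin genes and Tnnt2 is a cardiomyocyte gene, which mark other cells than the 6 classes compared.

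In NRVMs, Tsc22d3, Sgk1 and Mt2 fell and Errfi1 rose with ENPP1+ATP, with AMP and with ATP alone. With ENPP1+ATP 1 gene of the 9 rose and 3 fell, where 56.0% of 13461 genes changed (28.6% up and 27.4% down). AMP gave the same counts (57.2% of all genes, 29.2% up and 28.0% down), and with ATP 3 rose and 3 fell (59.9%, 30.2% up and 29.7% down).

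**Figure D5:**
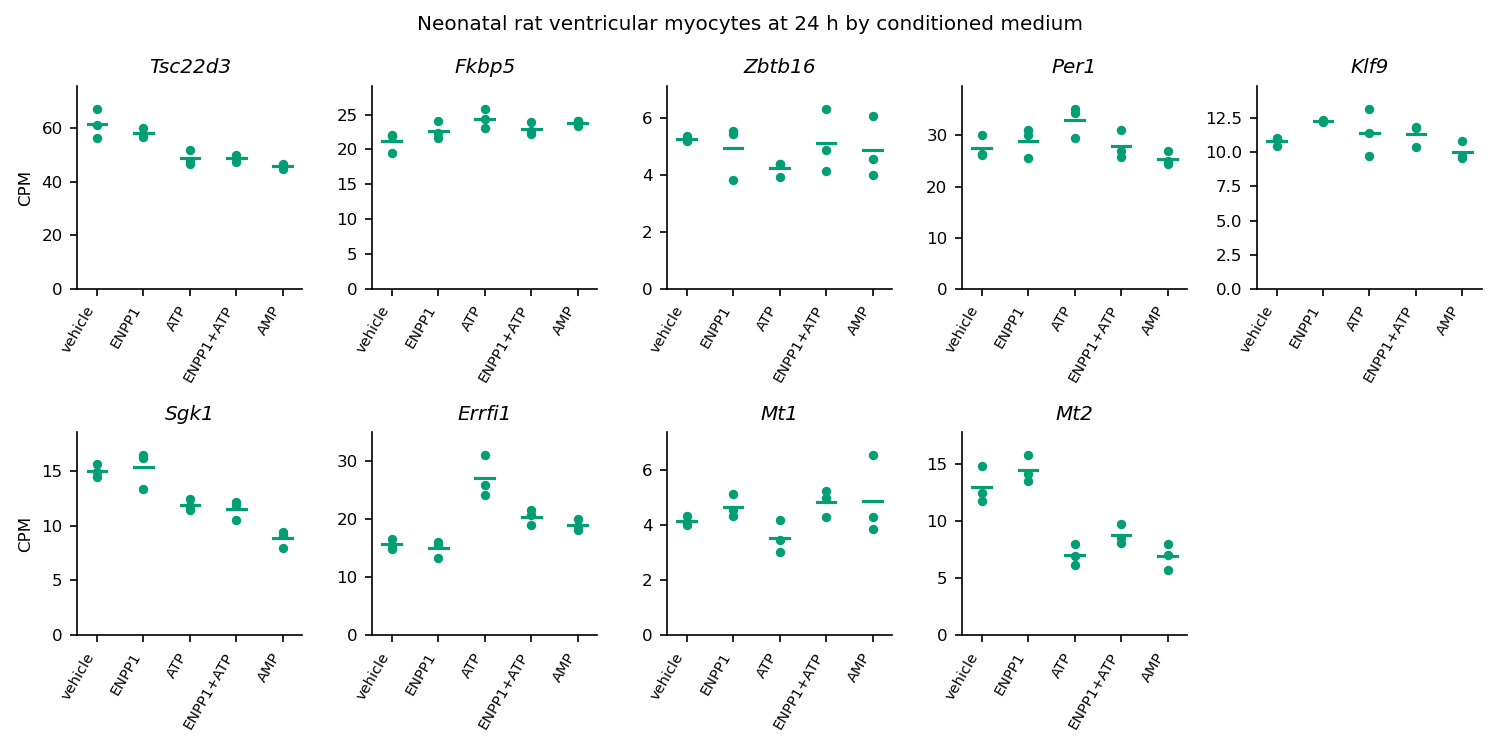
CPM of 9 genes in each of the 15 NRVM libraries at 24 h, by conditioned medium. Points are libraries, short lines are means of 3 libraries, and the vertical axes start at 0. Vehicle and ENPP1 libraries lie above those of ATP, ENPP1+ATP and AMP for Tsc22d3, Sgk1 and Mt2, and below them for Errfi1.

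Tsc22d3 had 61.2, 67.4 and 56.3 CPM in vehicle, 47.5, 48.9 and 50.1 CPM with ENPP1+ATP, 46.1, 44.7 and 46.8 CPM with AMP and 51.8, 47.8 and 46.8 CPM with ATP. Each library of the latter 3 media lay below every vehicle library. The log2 fold changes were -0.34 ± 0.06 (SE, n = 3 libraries a group, edgeR adjusted p = 7.8e-06) with ENPP1+ATP, -0.43 ± 0.06 (1.0e-07) with AMP and -0.34 ± 0.06 (6.3e-06) with ATP.

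Sgk1 had 14.9, 15.6 and 14.5 CPM in vehicle, 12.1, 10.5 and 11.9 CPM with ENPP1+ATP (-0.38 ± 0.11, edgeR adjusted p = 0.0031), 9.41, 7.99 and 9.11 CPM with AMP (-0.76 ± 0.11, 2.3e-07) and 11.8, 12.4 and 11.4 CPM with ATP (-0.33 ± 0.11, 0.0075). The 3 media lay below vehicle without overlap, and the ENPP1+ATP call was lost when replicate 2 of each group was left out (-0.29, edgeR adjusted p = 0.078). In CFs at 24 h the same gene had risen, and the cell types, the species and the tables differ, so the changes were not compared by a test.

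Mt2, read from the row Mt2A, had 12.4, 11.7 and 14.8 CPM in vehicle, 8.52, 8.05 and 9.76 CPM with ENPP1+ATP (-0.56 ± 0.13, edgeR adjusted p = 0.00029), 5.73, 7.00 and 7.99 CPM with AMP (-0.91 ± 0.13, 1.8e-07) and 6.15, 6.95 and 7.98 CPM with ATP (-0.88 ± 0.13, 2.3e-07). Mt1 had 4.13, 3.996 and 4.34 CPM in vehicle and passed in no comparison (0.22 ± 0.19 with ENPP1+ATP, edgeR adjusted p = 0.33). With ENPP1+ATP, Mt2 was lower both in NRVMs and in CFs at 24 h, while Mt1 rose in CFs and did not pass in NRVMs. With ATP alone Mt2 was lower in NRVMs, whereas in CFs at 24 h its mean was 60.4 CPM with ATP and 52.7 CPM in vehicle.

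Errfi1 had 14.9, 15.6 and 16.5 CPM in vehicle, 20.8, 21.5 and 19.0 CPM with ENPP1+ATP (0.39 ± 0.10, edgeR adjusted p = 0.00087), 18.1, 20.0 and 18.9 CPM with AMP (0.28 ± 0.10, 0.015) and 24.2, 25.8 and 31.01 CPM with ATP (0.79 ± 0.10, 1.6e-09). The libraries of the 3 media stood above vehicle. The AMP call was lost without AMP replicate 2 and without vehicle replicate 1 (edgeR adjusted p = 0.073 and 0.075). Errfi1 was lower with ENPP1+ATP than with ATP (-0.40 ± 0.09, edgeR adjusted p = 0.00063), a call that was lost when replicate 3 of each group was left out (-0.24, 0.11).

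Fkbp5 and Per1 passed with ATP alone against vehicle. Fkbp5 had 22.1, 19.4 and 21.9 CPM in vehicle and 25.9, 24.3 and 23.1 CPM with ATP (0.21 ± 0.08, edgeR adjusted p = 0.025), and the call was lost without ATP replicate 1 (0.12) or vehicle replicate 2 (0.15) and with DESeq2 (0.072). Per1 had 26.2, 30.2 and 26.4 CPM in vehicle and 29.5, 34.4 and 35.3 CPM with ATP (0.26 ± 0.09, edgeR adjusted p = 0.0080), with overlap between the groups, and was lower with ENPP1+ATP than with ATP (-0.25 ± 0.08, edgeR adjusted p = 0.023). Both Per1 calls were lost on leaving out single libraries: without ATP replicate 3 the adjusted p was 0.054 and 0.13. Klf9 and Zbtb16 passed in no NRVM comparison. ENPP1 medium gave 0 calls among the 9 genes and among all 13461 genes by edgeR (0%), 1 among all genes by DESeq2, and 693 genes but none of the 9 at an unadjusted p under 0.05. Between ENPP1+ATP and ATP, 0 of the 9 genes were higher and 2 lower, where 27.5% of all genes changed (14.1% up and 13.5% down).

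Among the other glucocorticoid targets, 16 of 27 rose and 8 fell in NRVMs with ENPP1+ATP (median log2 fold change 0.22, beside 0.01 for all genes, of which 28.6% rose and 27.4% fell), led by Sult1a1 (2.55 ± 0.54, edgeR adjusted p = 9.8e-05) and Il1r2, a decoy receptor for interleukin 1 (2.24 ± 0.29, 1.3e-08), and by Rgcc (-1.60 ± 0.36, 0.00018) and Fam107a (-1.56 ± 0.15, 3.4e-12). Of 22 receptor machinery genes 10 rose and 5 fell. Hsd11b1 rose by 1.13 ± 0.21 (edgeR adjusted p = 1.0e-05) and Nr3c2, the mineralocorticoid receptor, changed by -0.83 ± 0.12 (6.2e-08). Of 16 clock genes 8 rose and 2 fell, with Cry1 at 0.71 ± 0.08 (edgeR adjusted p = 1.6e-09) and Npas2 at -1.45 ± 0.30 (7.9e-05). Of 12 genes of the metal and oxidant response 8 rose and 2 fell (median 0.40), with Osgin1 at 0.96 ± 0.10 (edgeR adjusted p = 3.7e-11), Nqo1 at 0.90 ± 0.06 (2.9e-11) and Slc7a11 at -2.71 ± 0.11 (6.6e-25). With ATP alone against the same vehicle libraries, 14 of the other glucocorticoid targets rose and 6 fell (median 0.34), 8 receptor machinery genes rose and 6 fell, 11 clock genes rose and 2 fell, and 10 metal and oxidant genes rose and 1 fell (median 0.64), where 30.2% of all genes rose and 29.7% fell. Of the 12 metal and oxidant genes, 10 were lower and 1 higher with ENPP1+ATP than with ATP alone (13.5% and 14.1% of all genes).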

How the data were processed

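The authors deposited gene by cell matrices of counts from Cell Ranger for the 2 single-cell libraries, and tables of raw counts per gene for the 20 CF and 15 NRVM libraries, which they had aligned with STAR 2.5.3a. The builds in the submitters' processing notes are mm10 and rn6. Barcodes with under 200 genes or over 20% mitochondrial counts were removed (54 from ENPP1CKO and 38 from control), then predicted doublets (2.02% of ENPP1CKO barcodes and 1.29% of control barcodes). The 7255 and 5240 cells left were clustered together on 2000 variable genes, 30 components and 15 neighbours at Leiden resolution 0.5 (scanpy 1.11.5, leidenalg 0.10.2, igraph 0.11.9). Clusters were named from fixed markers of 10 cell types, and 2 stayed unnamed. Counts were summed per class and library, and ratios carry exact conditional binomial 95% intervals, which cover counting error only. Genes with fewer than 20 counts in both libraries together were left out of counts over all genes. Each genotype had 1 library, so genotypes were not tested. The floor for a count of 0 is 3 counts per library and class.

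CF and NRVM counts were fitted separately over all groups with edgeR 4.0.16 (quasi-likelihood, TMM, R 4.3.3), with Benjamini-Hochberg adjustment over the 17879 and 13461 genes tested. CPM use TMM-scaled library sizes. The precision of these values rests on 32184799 to 115824659 counts per CF library and 13481389 to 16977980 per NRVM library. The scripts were tested on simulated data. Alternatives were DESeq2 1.42.0, RLE size factors, other filters on low counts, a replicate block, fits of only the groups compared, left-out libraries and, for single cells, other cell filters, doublets kept, thinned counts, TMM scaling and other class definitions. The addition of the cluster led by Saa3 and Clu to the fibroblast-like class was chosen after seeing the data.

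The members and the lists (other glucocorticoid targets, receptor machinery, circadian clock, metal and oxidant response, dissociation stress) were chosen with earlier results of these data known. From each list, up to 3 genes with the largest rise and 3 with the largest fall past the threshold were eligible to be named. No column of per-sample values was left unused (0). A few genes that this rule names are not reported here.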

Additional observations from a re-analysis of the deposited data

Results flagged for a closer look

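The response of 5 of the 10 genes to ENPP1+ATP medium and of 6 to AMP medium differed between 24 and 48 h in CFs, where 30.0% and 31.7% of all genes did, by the test of that difference in edgeR, which compared the log2 fold change against vehicle at 48 h with that at 24 h. For ENPP1+ATP medium the difference was -0.63 for Fkbp5, -1.14 for Sgk1, -0.53 for Errfi1, 0.88 for Mt2 and 0.53 for Nr3c1. For AMP medium it was -0.57 for Tsc22d3, -0.56 for Fkbp5, 0.54 for Klf9, -1.19 for Sgk1, -0.81 for Errfi1 and 0.73 for Nr3c1. Fkbp5 and Nr3c1 were on opposite sides of vehicle at the 2 times with both media. The difference for Mt2 did not pass without 7 of the 8 libraries in turn (edgeR adjusted p from 0.061 to 0.13). That for Tsc22d3 did not pass without 5 libraries (0.054 to 0.15) and that for Klf9 without 3 (0.051 to 0.088).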

How the results depend on the processing

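No direction was reversed in any alternative run. With all settings other than left-out libraries, 93 of 106 counts of changed members in bulk stayed within 1.5 times the value reported, and with left-out libraries 99 of 105 did. In single cells all 25 counts did. The count for CF ATP medium at 24 h was 0 and became 1 with DESeq2, 1 with RLE size factors, 2 without a filter on low counts, 1 with at least 1 CPM in every library of a group, 1 with the replicate block and 4 with only the 2 groups compared. At 48 h it was 0 and became 1 with DESeq2, 4 without a filter, 1 with at least 1 CPM and 3 with only the 2 groups, and it ranged from 0 to 1 over left-out libraries. NRVM ENPP1+ATP against ATP gave 2, with 1 by DESeq2 and 0 to 3 over left-out libraries. CF vehicle at 48 h against 24 h gave 0, with 2 without a filter and 3 with only the 2 groups. The cause was not tested.

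Of single members in bulk, 944 of 1005 values with a left-out library kept their side of the threshold, 52 lost the call and 9 gained one. CF groups have 2 libraries, so a lone library was assumed to vary like the other groups. Among single-cell ratios, 207 of 244 moved by less than their interval. Zbtb16 in fibroblast-like cells ranged from 2.44 to 3.79 and Tsc22d3 there from 1.84 to 2.08. Zbtb16, at under 1 CPM in every CF library, is limited by depth.

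The deviations of libraries of the same number correlated with r from -0.11 to 0.28 in CFs and from -0.17 to 0.12 in NRVMs. Some pairs were below 0.1, so the numbers were not taken to pair the libraries. As a hint from the data and not from the design, 80% of CF libraries and 40% of NRVM libraries correlated best with their own number. The best was picked among 2 numbers in CFs and 3 in NRVMs, so some libraries match their own number without any pairing. The median r was 0.012 for the same number and -0.012 for other numbers in CFs, and 0.014 and -0.0016 in NRVMs. With the replicate block the only calls that changed were Errfi1 with ATP at 24 h (edgeR adjusted p = 0.049) and the time difference of Mt2 with AMP (0.038), both gained.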
